A study of Mus musculus with 20 samples.

Results

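The vacuolar proton ATPase is a rotary pump that uses ATP to move protons into lysosomes, endosomes, the Golgi apparatus and synaptic vesicles. Its peripheral V1 sector lies in the cytosol and hydrolyses ATP, and its V0 sector lies in the membrane and carries the protons. In neurons the proton gradient that it builds drives the loading of transmitters into synaptic vesicles. The account that follows covers 5 genes of the pump, taken by gene symbol. The V1 genes are Atp6v1a, Atp6v1b2 and Atp6v1d, and the V0 genes are Atp6v0b and Atp6v0a2. They carried 8 of the 15245 probes on the arrays, and 7 of these probes passed a filter on missing values. All 5 genes were among the 8319 genes and unnamed probes tested, 5255 of which were genes with a symbol.

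The arrays set amplified RNA of a brain region of mice with a null mutation, as labelled, against RNA pooled from that region of wild-type mice. Cortex, hippocampus, cerebellum and brain stem-diencephalon had 5 arrays each, on 2 of which the channels were swapped. Averaging arrays with the same region and number gave 4 replicates in cortex, the fourth being a single swapped array that bears no number, and 3 in each of the other regions. That unnumbered array may be a second array of a cortex extract already counted, so the 4 cortex replicates may not all be independent. The labels give no age, strain or sex, nor the number of animals pooled, and do not say whether different numbers were different animals. The p-values therefore reflect only the spread among these samples, and that spread may be technical. Numbers recur across the regions, and the labels do not say whether a number is the same animal in each. The fit treats the 13 replicates as independent. If regions share animals, the intervals and p-values of the mean over the regions may be too small. Every value below is a log2 ratio, null over wild type, centred on the array's median. The deposited ratios were read as channel 1 over channel 2 because the labels list the channels so, which makes each direction likely rather than stated. In the opposite reading all signs turn.

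Several features of the arrays bear on these genes. Signal levels were not analysed here, so the level of a subunit in a region and the markers of each region were not examined. One swapped array appeared almost identically under cerebellum number 1 and brain stem-diencephalon number 2 (r = 0.995, against 0.743 for the next of the 190 pairs), so the region of at least 1 copy is in doubt. Both copies are counted in the numbers of arrays and replicates below, and the values without them are given where they differ in sign. The Y-linked gene Eif2s3y was at -1.36 to -0.44 on 6 arrays of number 1, at 0.93 to 1.64 on 11 arrays with another number or none, and at 1.71 on both copies of the repeated array. Fewer cells of a type and less RNA per cell cannot be told apart in such tissue RNA.

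The promoters of 3 of the 5 genes are shown because the CACGTG box, the core of the element bound by TFEB and related factors, is known from regulation of lysosomal genes. RefSeq (assembly GRCm38.p6) gave the 250 bases before each start site, all on the minus strand, at chr16:44139260-44139509 for Atp6v1a, chr12:78861639-78861888 for Atp6v1d and chr4:117887330-117887579 for Atp6v0b. They are written 5′ to 3′, with matches to CACGTG, or to the longer TCACGTGA where it is present, in capitals.
Atp6v1a: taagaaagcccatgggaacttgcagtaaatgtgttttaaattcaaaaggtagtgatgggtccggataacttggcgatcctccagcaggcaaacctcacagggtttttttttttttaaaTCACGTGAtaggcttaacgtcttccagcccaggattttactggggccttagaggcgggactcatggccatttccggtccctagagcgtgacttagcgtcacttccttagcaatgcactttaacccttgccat
Atp6v1d: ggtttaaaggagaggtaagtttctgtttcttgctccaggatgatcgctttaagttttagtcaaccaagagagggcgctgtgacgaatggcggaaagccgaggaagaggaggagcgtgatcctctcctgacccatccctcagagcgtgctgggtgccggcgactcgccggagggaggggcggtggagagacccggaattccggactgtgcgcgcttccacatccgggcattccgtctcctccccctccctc
Atp6v0b: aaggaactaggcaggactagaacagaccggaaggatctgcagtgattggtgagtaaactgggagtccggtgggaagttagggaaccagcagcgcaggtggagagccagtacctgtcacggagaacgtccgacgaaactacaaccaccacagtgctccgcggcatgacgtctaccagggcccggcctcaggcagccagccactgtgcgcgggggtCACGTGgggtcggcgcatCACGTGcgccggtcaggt
Atp6v1a had 1 match to TCACGTGA, starting 132 bases before the start site. Atp6v0b had 2 matches to CACGTG, starting 36 and 18 bases before it, and none to TCACGTGA. Atp6v1d had no match in its window. Both motifs read alike on the 2 strands, and TCACGTGA contains CACGTG, so each match to the longer motif is also one to the shorter. Of 32544 mouse promoters of 300 bases, from 250 before to 50 after the start site, 7.17% held CACGTG and 0.983% held TCACGTGA. Of the 19 pump genes with such a window, 4 held CACGTG, and 3 of these held TCACGTGA. These counts are per gene, and some of the genes had more than 1 window, while the percentages are per promoter. Atp6v1a, with a higher ratio in the null mutants, and Atp6v0b, with a lower one, were thus both among the matches. Atp6v1b2 and Atp6v0a2 are named only.

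Over the mean of the 4 regions, 2 of the 5 genes rose and 2 fell in the null mutants. Atp6v1a rose by 0.48 ± 0.08 on the log2 scale (SE) and Atp6v1b2 by 0.32 ± 0.08, while Atp6v0b fell by 0.43 ± 0.08 and Atp6v0a2 fell by 0.24 ± 0.05. Atp6v1d did not pass the threshold of 0.05 on the adjusted p. Of all 8319 features, 13.2% were higher and 12.9% lower by the same limma test. In cortex, 2 of the 5 rose and 0 fell, where 1.68% of all features were higher and 2.44% lower. In cerebellum, 0 rose and 1 fell, where 1.49% of all features were higher and 1.57% lower. None passed in hippocampus, where 0.156% of all features were higher and 0.505% lower, or in brain stem-diencephalon, with 0.0481% higher and 0.313% lower. At an unadjusted p under 0.05, limma counted 3 of the 5 genes in hippocampus, where 14.1% of all features had such a p, and 1 in brain stem-diencephalon, where 13.5% had one.

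Atp6v1a codes for the catalytic A subunit, which binds and hydrolyses ATP in the V1 head. Its cortex replicates were at 0.14, 0.68, 0.76 and 0.86, where the last is the unnumbered swapped array. The hippocampus replicates 1 to 3 were at 0.11, 0.74 and 0.60, and those of cerebellum at 0.19, 0.56 and 0.47. Brain stem-diencephalon gave 0.06, 0.58 and 0.41. All 13 replicates lay above 0, and in each region replicate 1 lay nearest to it. Without the repeated array, cerebellum replicate 1 was at -0.07, so that 12 of 13 lay above 0. The fitted cortex ratio, which allows for the channel orientation of the arrays averaged, was 0.63 ± 0.13 (SE, n = 4), or 1.54-fold (limma adjusted p = 0.0282). Hippocampus was at 0.50, cerebellum at 0.43 and brain stem-diencephalon at 0.37, with adjusted p of 0.166, 0.123 and 0.305. The mean of 0.48 was 1.40-fold (95% interval 0.31 to 0.66, adjusted p = 0.00145, n = 13).

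The 2 probes of Atp6v1a were both above 0 on most arrays. Probe 2361 had a median of 0.46 over 18 arrays (-0.01 to 0.86) and was above 0 on 17 of them. Probe 12381 had a median of 0.50 over 20 arrays (-0.20 to 1.08) and was above 0 on 15. In cortex, probe 2361 ranged from 0.45 to 0.86 and probe 12381 from -0.20 to 1.08. On probe 12381 alone the cortex call ended (0.63 ± 0.19, adjusted p = 0.0591). It also ended without cortex replicate 2, replicate 3 or the unnumbered array, at 0.61, 0.56 and 0.50 with adjusted p of 0.0870, 0.115 and 0.436.

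Atp6v1b2 codes for the B2 subunit, the form of the noncatalytic nucleotide-binding subunit found in brain. In cortex its replicates were at 0.29, 0.65, 1.02 and 0.80, again with the unnumbered array last. Hippocampus gave -0.27, 0.55 and 0.44, and cerebellum gave 0.03, 0.31 and 0.33. Brain stem-diencephalon replicates were at -0.03, 0.35 and 0.26. The cortex values were all above 0, and 2 of the 9 in the other regions lay below it, both of number 1. Cerebellum replicate 1 was at -0.01 without the repeated array. The fitted cortex ratio was 0.68 ± 0.14 (SE, n = 4), or 1.60-fold (limma adjusted p = 0.0257). The other regions were at 0.23, 0.21 and 0.18 in the same order, with adjusted p of 0.550, 0.460 and 0.651. The mean of 0.32 was 1.25-fold (95% interval 0.14 to 0.51, adjusted p = 0.0139), with 11 of 13 replicates above 0, or 10 of 13 without the repeated array.

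Of the 3 probes of Atp6v1b2, 1 missed the filter. Probe 11001 had a median of 0.46 over 20 arrays and was above 0 on 17. Probe 13677 had a median of 0.33 over 19 arrays and was above 0 on 13. Probe 12920, the one left out, was above 0 on 8 of the 13 arrays with a value, with a median of 0.31. On probe 13677 alone the mean was 0.22 ± 0.08 (adjusted p = 0.0648). The mean also missed the threshold without the unnumbered cortex array (0.27, adjusted p = 0.112) and without hippocampus replicate 2 (0.27, adjusted p = 0.0512). The cortex call ended without cortex replicate 2, replicate 3 or the unnumbered array, at 0.69, 0.58 and 0.56 with adjusted p of 0.0700, 0.110 and 0.429.

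Atp6v1d codes for subunit D of the central stalk, the shaft that turns inside the V1 head. Its cortex replicates were at 0.07, 0.03, 0.50 and -0.03, and those of hippocampus at -0.05, 0.82 and 0.21. Cerebellum gave -0.24, 0.07 and 0.01, and brain stem-diencephalon gave 0.12, 0.02 and 0.42. Values of both signs occurred in cortex, hippocampus and cerebellum, and 10 of the 13 replicates lay above 0. The mean was 0.11 ± 0.08 (SE, adjusted p = 0.310), with a 95% interval from -0.06 to 0.28. Its single probe, 429, read 1.42 on the swapped array of hippocampus number 2 and 0.23 on the other array of that number. Without hippocampus replicate 2 the hippocampus ratio was -0.02, against 0.28 with it.

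**Figure D1:**
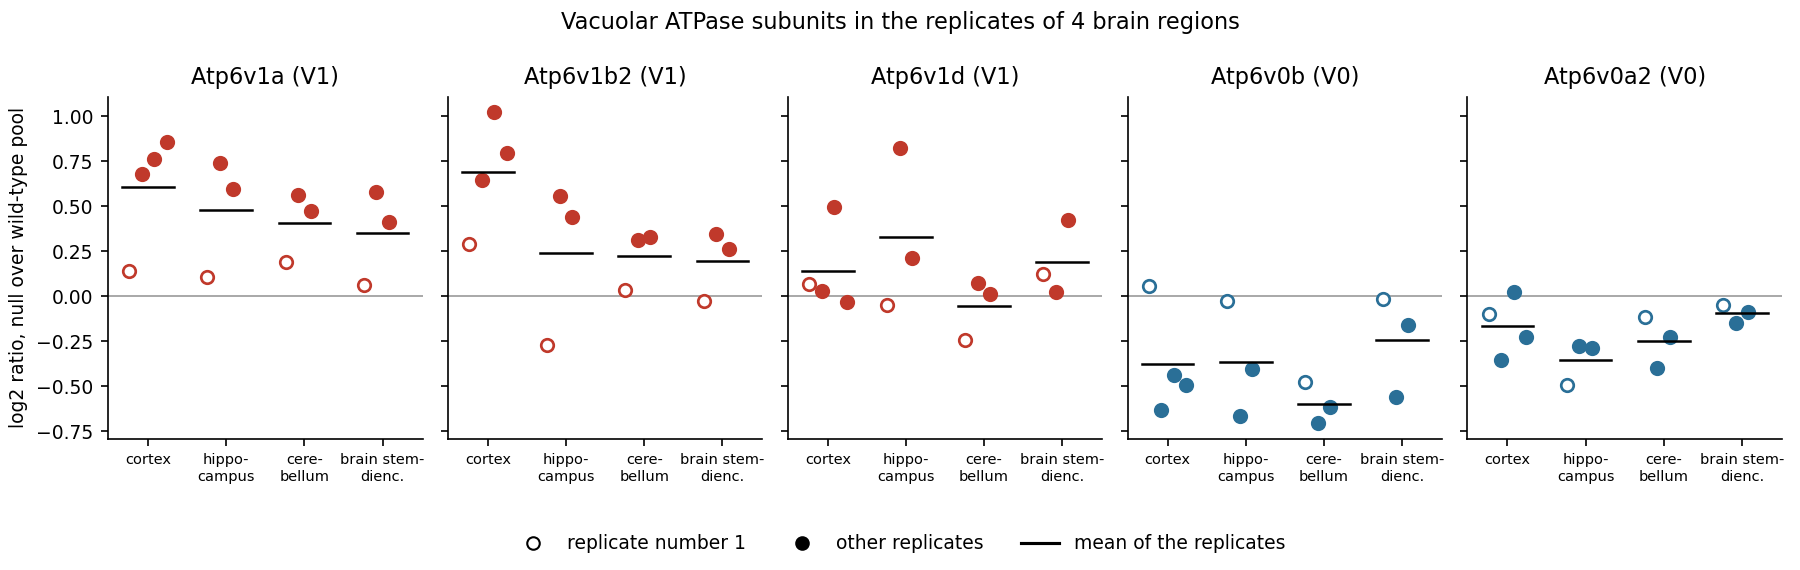
Log2 ratio of null over wild-type RNA (vertical axis) in the replicates of cortex, hippocampus, cerebellum and brain stem-diencephalon (horizontal axis), with a panel for each of the 5 subunits. Open points are replicates of number 1, filled points all others, and bars the means: Atp6v1a stays above 0 in 13 of 13 replicates, and Atp6v0b and Atp6v0a2 below 0 in 12 of 13 each. Without the repeated array, which is averaged into the points drawn, these counts are 12, 12 and 10 of 13.

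Atp6v0b codes for the c″ proteolipid, a member of the membrane ring that carries protons as it turns. Its cortex replicates were at 0.06, -0.63, -0.44 and -0.49. In hippocampus they were at -0.02, -0.67 and -0.40, and in cerebellum at -0.47, -0.71 and -0.62. Brain stem-diencephalon gave -0.02, -0.56 and -0.16. Cerebellum had all 3 replicates below 0, with replicate 1 at -0.20 when the repeated array was left out, and elsewhere replicate 1 lay within 0.06 of it. The fitted cerebellum ratio fell by 0.63 ± 0.14 (SE, n = 3), or 1.55-fold (limma adjusted p = 0.0368). Cortex was at -0.40, hippocampus at -0.40 and brain stem-diencephalon at -0.28, with adjusted p of 0.0686, 0.221 and 0.409. The mean fell by 0.43, or 1.35-fold (95% interval -0.59 to -0.27, adjusted p = 0.00199), with 12 of 13 replicates below 0.

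Probe 9616 was the single probe of Atp6v0b and was below 0 on 17 of 20 arrays, with a median of -0.47. The cerebellum call ended without both copies of the repeated array (-0.57, adjusted p = 0.130), which read -0.75 on each copy. It also ended without cerebellum replicate 1, 2 or 3, at -0.72, -0.60 and -0.59 with adjusted p of 0.0890, 0.234 and 0.190. Leaving out the unnumbered cortex array or brain stem-diencephalon replicate 3 gave adjusted p of 0.0543 and 0.0596 for cerebellum, and the reason was not tested. The mean kept its sign and its call under each of the 25 alternatives run for it, with values from -0.56 to -0.37.

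Atp6v0a2 codes for the a2 form of the large membrane subunit, which forms the proton half-channels and is known from the Golgi apparatus and endosomes. The cortex replicates were at -0.10, -0.36, 0.02 and -0.23, and the hippocampus replicates at -0.50, -0.28 and -0.29. Cerebellum gave -0.12, -0.40 and -0.22, and brain stem-diencephalon gave -0.05, -0.15 and -0.09. All replicates but 1 of cortex lay below 0, and here number 1 held the lowest value of hippocampus. Without the repeated array, cerebellum replicate 1 was at 0.14 and brain stem-diencephalon replicate 2 at 0.07, so that 10 of 13 lay below 0. The mean fell by 0.24, or 1.18-fold (95% interval -0.35 to -0.14, limma adjusted p = 0.00362), and kept its call under each of the 25 alternatives run for it. No single region passed, and the ratios of cortex, hippocampus, cerebellum and brain stem-diencephalon were -0.19, -0.38, -0.28 and -0.12 (adjusted p = 0.147, 0.0942, 0.105 and 0.583). Its single probe, 3119, was below 0 on 16 of 20 arrays.

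**Figure D2:**
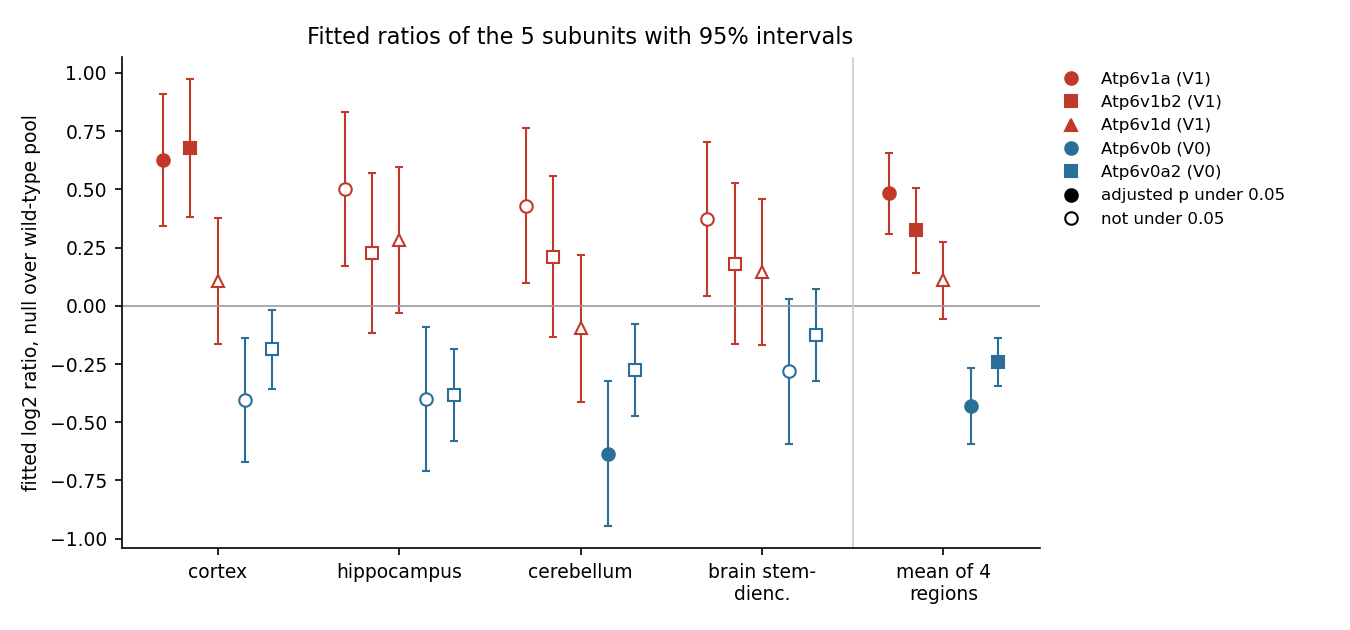
Fitted log2 ratio of null over wild-type RNA with its 95% interval (vertical axis) for the 5 subunits in each region and in the mean of the 4 regions (horizontal axis). Filled points have an adjusted p under 0.05: Atp6v1a and Atp6v1b2 in cortex, Atp6v0b in cerebellum, and 4 of the 5 subunits in the mean.

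The replicates of number 1 stood apart for 3 of the 5 genes. The share of all features that did so is not given here. Over features without a missing replicate, deviations of the number 1 replicates from the fit correlated between regions at 0.095 to 0.71. Atp6v1a was at 0.06 to 0.19 in the 4 replicates of number 1 and at 0.41 to 0.86 in the other 9, with no overlap. Atp6v1b2 was at -0.27 to 0.29 in number 1 and at 0.26 to 1.02 in the others, and number 1 was the lowest replicate of all 4 regions. Atp6v0b was at -0.47 to 0.06 in number 1 and at -0.71 to -0.16 in the others, and number 1 was the highest replicate of all 4 regions. For Atp6v1d and Atp6v0a2 the same ranges overlapped widely, at -0.24 to 0.12 and -0.50 to -0.05 in number 1 against -0.03 to 0.82 and -0.40 to 0.02 in the others. These are also the arrays on which Eif2s3y was below 0 outside the repeated array, and the part of the sex of the animals in the ratios was not tested. Without the repeated array, number 1 was at -0.07 to 0.14 for Atp6v1a, at -0.27 to 0.29 for Atp6v1b2 and at -0.20 to 0.06 for Atp6v0b, and again the lowest or the highest replicate of all 4 regions. With all replicates of number 1 left out, an alternative chosen after seeing the data, the mean was 0.64 for Atp6v1a, 0.47 for Atp6v1b2, 0.20 for Atp6v1d, -0.56 for Atp6v0b and -0.26 for Atp6v0a2. Then 3 of the 5 genes passed in cortex and 3 in hippocampus, 2 passed in cerebellum and 1 in brain stem-diencephalon, and 4 passed in the mean. Over all features, too, more were called then, at 23.5% in cortex, 4.71% in hippocampus, 6.13% in cerebellum, 2.32% in brain stem-diencephalon and 31.7% in the mean, against 4.12%, 0.661%, 3.07%, 0.361% and 26.1% with number 1.

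Pairs of arrays of the same region and number with swapped channels gave a second reading of each gene. The pairs of cerebellum number 1 and brain stem-diencephalon number 2 both take their second reading from the repeated array, so at least 1 of them is not a swap of the same extract. Atp6v1a had the same sign in 9 of 12 pairs of its probes, and Atp6v1b2 in 13 of 16, with probe 12920 included. Not all of these pairs lay above 0. For Atp6v1b2, hippocampus number 1 was below 0 on each probe (-0.32 and -0.20, -0.54 and -0.60, -0.11 and -0.45). Cerebellum number 1 was also below 0 on probe 13677 (-0.12 and -0.31). Probe 12381 of Atp6v1a read -0.008 and -0.001 in brain stem-diencephalon number 1. Atp6v0b had the same sign in 5 of 7 pairs, and the 2 exceptions were number 1 of hippocampus (0.21 with null RNA in channel 1 and -0.26 in channel 2) and number 1 of brain stem-diencephalon (0.09 and -0.13). Atp6v0a2 had the same sign in 4 of 7 pairs and Atp6v1d in 2 of 7. Leaving out the pairs with the repeated array, the signs were the same in 8 of 10 pairs for Atp6v1a, 10 of 12 for Atp6v1b2, 3 of 5 for Atp6v0b, 4 of 5 for Atp6v0a2 and 1 of 5 for Atp6v1d. The median size of the difference within a pair was 0.19 for Atp6v1a, 0.15 for Atp6v1b2, 0.30 for Atp6v0b, 0.35 for Atp6v0a2 and 0.35 for Atp6v1d. For Atp6v0a2 and Atp6v1d this exceeds the fitted mean of the gene. The fit averages the 2 arrays of a pair, so the difference within a pair does not enter its orientation term.

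**Figure D3:**
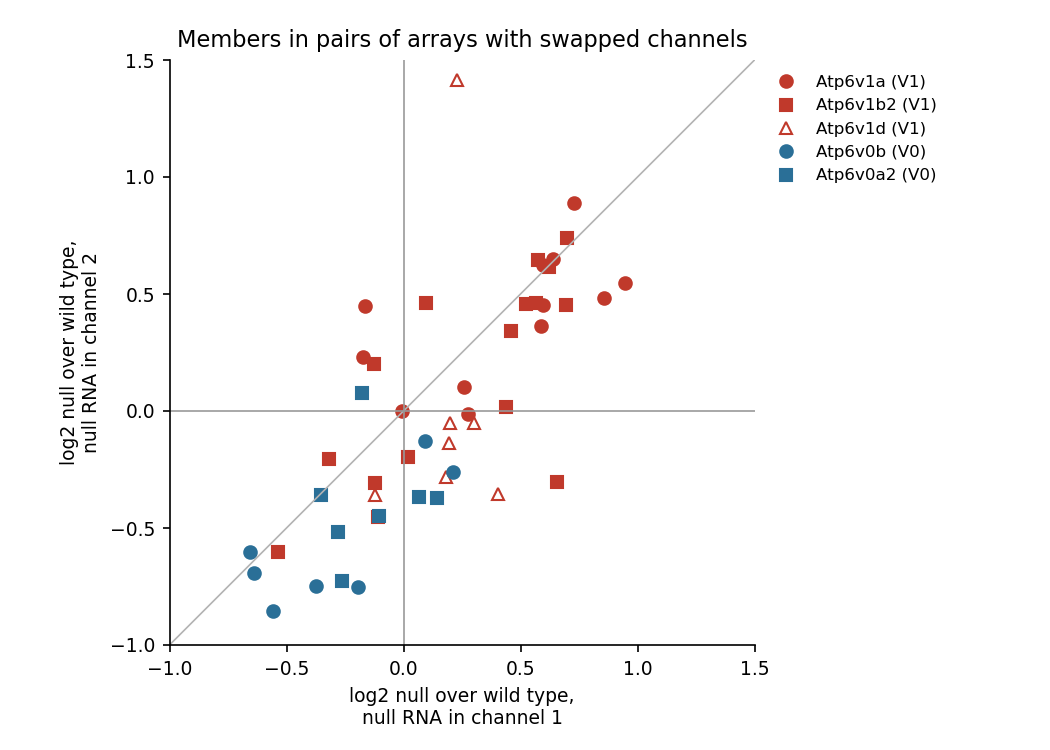
Log2 ratio of null over wild type with null RNA in channel 1 (horizontal axis) against the same ratio with null RNA in channel 2 (vertical axis), for each probe of the 5 subunits and each pair of swapped arrays, those with the repeated array included. The grey diagonal marks equal readings: most Atp6v1a and Atp6v1b2 points lie in the upper right, Atp6v0b points lie mostly in the lower left, and the open Atp6v1d triangle at 1.42 is hippocampus number 2.

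The 4 regions were then compared for each gene. By fitted ratio, Atp6v1a and Atp6v1b2 ran from cortex to hippocampus, cerebellum and brain stem-diencephalon in falling order. Atp6v0b was lowest in cerebellum, then cortex, hippocampus and brain stem-diencephalon. Atp6v0a2 was lowest in hippocampus, then cerebellum, cortex and brain stem-diencephalon. None of the 5 genes passed limma's F test of equal regions (unadjusted p from 0.0766 for Atp6v1b2 to 0.611 for Atp6v1a, adjusted p = 0.999). Of all features, 0% passed it, with 351 at an unadjusted p under 0.05. Atp6v1d was at 0.28 in hippocampus, 0.15 in brain stem-diencephalon, 0.11 in cortex and -0.10 in cerebellum. No difference between neighbours in these orders passed the threshold after adjustment. Atp6v1b2 exceeded the other regions in cortex by 0.45 over hippocampus (95% interval 0.01 to 0.89), 0.47 over cerebellum (0.02 to 0.91) and 0.50 over brain stem-diencephalon (0.06 to 0.94), with unadjusted p of 0.0460, 0.0401 and 0.0301 and adjusted p of 0.948, 0.796 and 0.805. Of all features, 0.012% passed for cortex minus hippocampus, 0.0481% for cortex minus cerebellum and 0% for cortex minus brain stem-diencephalon. In the same order, 358, 508 and 488 of the 8319 features had an unadjusted p under 0.05. For the 3 differences among hippocampus, cerebellum and brain stem-diencephalon, 0% of all features passed, with 238 to 261 at an unadjusted p under 0.05. The hippocampus minus brain stem-diencephalon difference of Atp6v0a2 was -0.26 (95% interval -0.53 to 0.01), and the hippocampus minus cerebellum difference of Atp6v1d was 0.38 (-0.05 to 0.81).

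The V1 and V0 genes were set side by side within each replicate. The 5 genes were chosen with results of these data known, so the difference is a description. The mean of the 3 V1 genes minus the mean of the 2 V0 genes was 0.18, 0.94, 0.97 and 0.90 in the cortex replicates. It was 0.19, 1.18 and 0.76 in hippocampus and 0.29, 0.87 and 0.69 in cerebellum. Brain stem-diencephalon gave 0.09, 0.67 and 0.49. The difference was above 0 in 13 of 13 replicates and smallest in replicate 1 of every region. In cerebellum replicate 1 this rested on the repeated array: without it the V1 mean was -0.07, the V0 mean -0.03 and the difference -0.04, and 12 of 13 replicates lay above 0. From the fitted values, the V1 genes averaged 0.31 and the V0 genes -0.34 over the 4 regions, a difference of 0.64, or 1.56-fold. By region the fitted difference was 0.76 (SD over the replicates 0.38) in cortex and 0.73 (SD 0.50) in hippocampus. It was 0.64 (SD 0.30) in cerebellum and 0.44 (SD 0.30) in brain stem-diencephalon. Reading the channels in the opposite order would turn the sign of every ratio and leave the fitted averages of these V1 and V0 genes on opposite sides of 0. Within replicates this did not always hold. As read here, the V1 and V0 averages were both below 0 in replicate 1 of hippocampus (-0.07 and -0.26) and of cerebellum (-0.005 and -0.29).

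**Figure D4:**
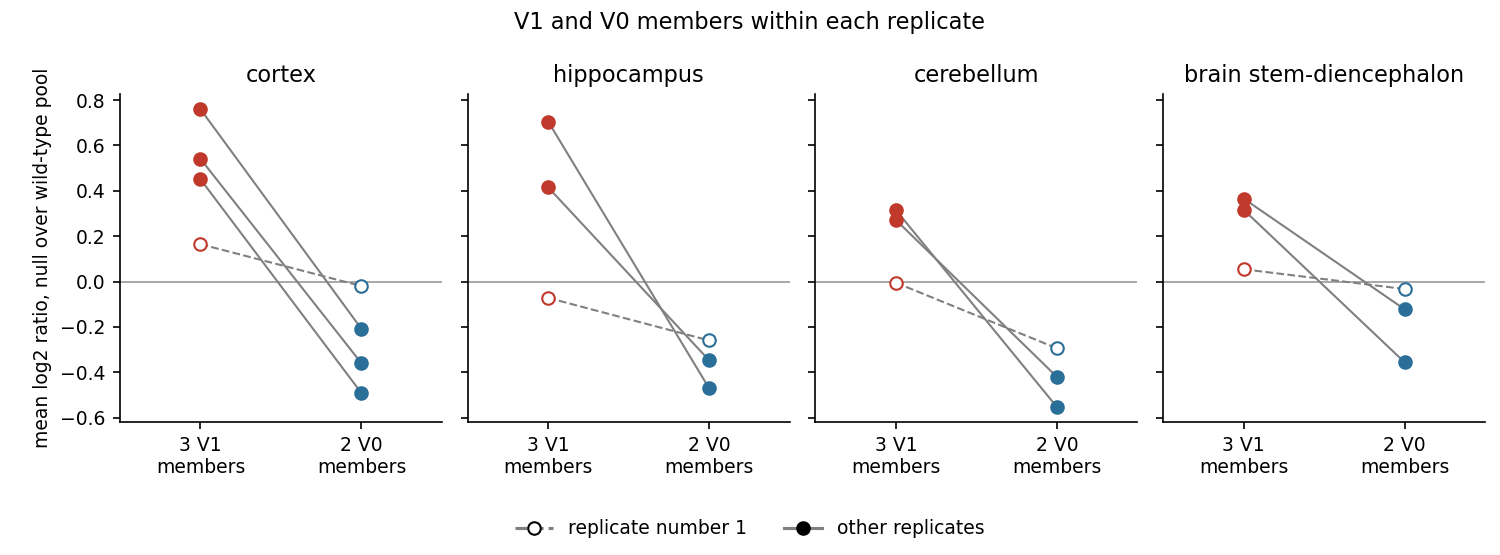
Mean log2 ratio of null over wild type of the 3 V1 genes (left in each panel) and the 2 V0 genes (right) within each replicate, joined by a line, in the 4 regions. Dashed lines with open points are replicates of number 1: every line falls from V1 to V0, by 0.09 to 0.29 in number 1 and by 0.49 to 1.18 in the others. Without the repeated array the cerebellum line of number 1 does not fall (V1 minus V0 of -0.04).

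The values of the replicates also showed which of the 5 genes varied together, as a description over 13 values that share arrays. Atp6v1a and Atp6v1b2 correlated at r = 0.88, and at 0.85 over the 9 replicates without number 1. Atp6v1a and Atp6v0b correlated at -0.75, and at -0.30 without number 1. Atp6v0b and Atp6v0a2 correlated at 0.26, and at 0.63 without number 1. Atp6v1d correlated with Atp6v1a at 0.42 and with Atp6v1b2 at 0.43, and at 0.13 and 0.19 without number 1. Between the sectors, Atp6v1b2 and Atp6v0b were at -0.52, and at -0.03 without number 1. Atp6v1d and Atp6v0b were at -0.11, and at 0.19 without number 1. With Atp6v0a2, the genes Atp6v1a, Atp6v1b2 and Atp6v1d were at -0.08, 0.26 and 0.20, and at 0.004, 0.36 and 0.33 without number 1. The correlation of the pair of V1 head subunits was thus nearly as large without number 1, and that of Atp6v1a with Atp6v0b was smaller.

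The whole pump was read from 25 listed genes, of which 14 had a probe and 11 were tested. In the mean, 3 of the 11 rose and 2 fell, where 13.2% of all features were higher and 12.9% lower, with a median of 0.05 over the 11 and of 0.01 over all features. Among the 6 V1 genes, 2 rose and 0 fell, with a median of 0.10. Atp6v1c1 (0.08 ± 0.05), Atp6v1e1 (0.05 ± 0.06) and Atp6v1g1 (-0.01 ± 0.05), which code for subunits C, E1 and G1 of the peripheral stalks, did not pass. Among the 5 V0 genes, 1 rose and 2 fell, with a median of -0.02. The one that rose was Atp6v0d1, which codes for the d subunit that joins the membrane ring to the central stalk. Its replicates were at 0.27, 0.06, 0.39 and 0.18 in cortex, and at 0.30, 0.00 and 0.14 in hippocampus. Cerebellum gave 0.55, 0.18 and 0.39, and brain stem-diencephalon gave 0.03, 0.83 and 0.46, where the 0.83 was read on the repeated array alone. The mean was 0.30 ± 0.07, or 1.23-fold (adjusted p = 0.00599), and 0.17 without the repeated array (adjusted p = 0.0653). The 3 V0 genes that passed thus lay on both sides of 0. Tcirg1 (0.03 ± 0.05), the a3 subunit, and Atp6v0e (-0.02 ± 0.05), a small membrane subunit, did not pass. A second probe of Tcirg1, 1783, missed the filter, with a median of -0.15 over 14 arrays, 10 of them below 0. Atp6v1h, Atp6v0a1 and Atp6v0a4 had probes that missed the filter, with medians of 0.10 over 6 arrays for Atp6v1h and -0.12 over 11 for Atp6v0a1, and of 0.19 over 8 and 0.10 over 10 for the 2 probes of Atp6v0a4.

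**Figure D5:**
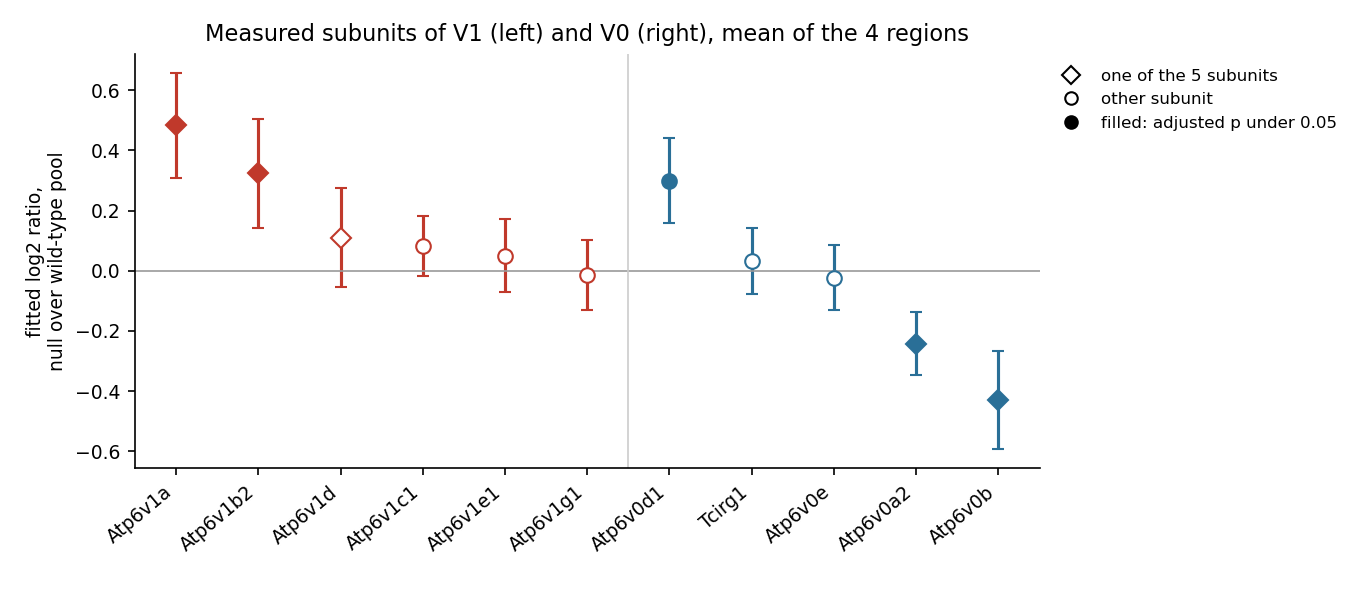
Fitted log2 ratio of null over wild type with its 95% interval, mean of the 4 regions (vertical axis), for the 6 V1 genes (left) and the 5 V0 genes (right) tested. Diamonds are the 5 subunits described and circles the other 6, filled where the adjusted p is under 0.05: Atp6v0d1, at 0.30, lies on the side of Atp6v1a and Atp6v1b2.

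Genes that act with the pump were counted in the mean of the 4 regions, from lists described by counts and medians. Their counts stand against 13.2% of all features higher and 12.9% lower. Of 6 tested assembly and regulation genes, 0 rose and 2 fell. These were Ccdc115, known from assembly of the pump (-0.23, adjusted p = 0.00813, 7 of 11 replicates below 0, or 5 of 10 without the repeated array), and Rnasek, which associates with it (-0.24, adjusted p = 0.0322, 8 of 13 below 0, or 7 without that array). Of 26 lysosomal genes, 7 rose and 1 fell, with a median of 0.08 and 22 of 26 above 0, against 52.5% of all features above 0. Lamp2, a lysosomal membrane protein, rose by 0.22 (adjusted p = 0.0033, 13 of 13 replicates above 0), although its probe 9388 alone gave 0.07 (adjusted p = 0.540). Hexa, a lysosomal hexosaminidase subunit, fell by 0.44 (adjusted p = 0.00465). Of 7 genes of the lysosomal mTORC1 scaffold, 1 rose and 2 fell. Mtor, the kinase, rose by 0.31 (adjusted p = 0.0140), and Tfeb, the factor that binds CACGTG elements, fell by 0.31 (adjusted p = 0.00344, 12 of 13 replicates below 0, or 11 without the repeated array).

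The related mitochondrial ATP synthase had 0 higher and 4 lower of 12 tested genes, again against 13.2% and 12.9% of all features, with a median of -0.04. Atp5g1, of its c ring, fell by 0.26 (adjusted p = 0.00517), and Atp5l, subunit g, fell by 0.24 (adjusted p = 0.0165). None of the 2 tested vesicular transporter genes passed (Slc17a9 at 0.14, Sv2a at -0.04), nor did the 2 endosomal exchangers (Clcn7 at 0.08, Clcn3 at 0.05). The 2 tested plasma membrane acid-base transporters did not pass either (Slc4a3 at -0.16, Slc16a3 at -0.12). At an unadjusted p under 0.05, Slc17a9 was the only one of these 6, and 39.6% of all features had such a p.

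Markers of cell types were read in the same mean and against the same shares of all features (13.2% higher, 12.9% lower), and their part in the ratios of the pump was not tested. Of the 4 neuron markers tested (of 12 listed), 1 fell, with a median of -0.06: Tubb3 fell by 0.66 (adjusted p = 0.00123) and Gap43 was at 0.07. Of 4 vessel and blood markers (of 10 listed), 1 rose and 2 fell, with a median of -0.24: Pecam1 fell by 0.44 (adjusted p = 0.00173), and Hbb-b1 rose by 0.56 (adjusted p = 0.00297). Of 4 astrocyte markers (of 10 listed), 1 rose, with a median of -0.03: Slc1a3 rose by 0.14 (adjusted p = 0.0378) and Glul was at -0.06. The single choroid plexus marker tested of 8 listed, Ttr, fell by 0.31 (adjusted p = 0.0422). None of the 3 microglia markers (of 10 listed, median 0.12, C1qc at 0.14, C1qb at -0.09) and not the single oligodendrocyte marker of 10 listed, Mbp (-0.04), passed, and 0 of these 4 had an unadjusted p under 0.05 by limma, against 39.6% of all features. Without the unnumbered cortex array the calls of Rnasek, Mtor, Atp5g1, Atp5l, Hbb-b1, Slc1a3 and Ttr ended, with adjusted p of 0.111, 0.292, 0.0610, 0.0976, 0.0834, 0.163 and 0.0540. Without the repeated array those of Rnasek, Atp5l, Slc1a3 and Ttr ended (adjusted p = 0.132, 0.0656, 0.130 and 0.633). Among the 13 replicates left out in turn, the call ended in 6 cases for Rnasek, 3 for Atp5l, 9 for Slc1a3 and 10 for Ttr.

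The genes most like each subunit were taken by Pearson correlation over the 13 replicates, among 3618 genes without a missing replicate. These values share arrays and the contrast of number 1 with the others, so the correlation over the 9 other replicates is given beside each. Nearest to Atp6v1a were Strap (0.96, and 0.90 over the 9), Zfp91 (0.96 and 0.93) and Mfsd14a (0.94 and 0.84). For Atp6v1b2 they were Pabpc1 (0.93 and 0.89), Ywhab (0.92 and 0.80) and Ccng1 (0.91 and 0.82). The nearest to Atp6v1d were Armt1 (0.87 and 0.88), Ap1s2 (0.86 and 0.87) and Usp27x (0.86 and 0.86). Atp6v0b was followed most closely by Hnrnpu (0.93 and 0.74), Nrbp2 (0.93 and 0.90) and Ddx17 (0.92 and 0.82). For Atp6v0a2 they were Rundc1 (0.90 and 0.92), Csnk1g2 (0.88 and 0.88) and App (0.85 and 0.82). No subunit of the pump was among these 15 genes. Of the 15, Strap at 0.38, Mfsd14a at 0.39, Pabpc1 at 0.34 and Ywhab at 0.25 rose in the mean, and Hnrnpu at -0.38 and Ddx17 at -0.28 fell.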

How the data were processed

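Per the labels, each of the 20 arrays held amplified RNA of a null mutant brain region in 1 channel and pooled wild-type RNA of that region in the other. The authors deposited 1 log ratio per probe, already centred near 0 (array medians 0.00862 to 0.0609) and read here as log2. The sources used here do not state the log base, the channel order or the earlier processing. Between 6793 and 13963 of 15245 probes had a value per array. Precision is limited by how few arrays there are.

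Swapped arrays were multiplied by -1, each array was centred on its median, and arrays of a region with the same number were averaged. Probes were kept that had values on at least 3 arrays per region, including at least 1 per orientation (9701 probes). They were named by Entrez ID from the platform annotation and averaged per gene. A linear model held region and orientation terms, and limma (3.58.1, under R 4.3.3) moderated its variances, with 8 residual and 6.04 prior degrees of freedom. The ratio was tested against 0, because no other control than the wild-type pool exists, whose spread therefore does not enter. All p-values were adjusted by Benjamini-Hochberg over all 8319 features and are from limma's moderated test. The fit was tested on simulated data.

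The 5 members and all lists were chosen with earlier results of these data known. Named are all members with every probe, the other measured pump genes, the 2 genes of smallest p in the mean of each other list, and the 3 genes most correlated with each member. The mutated gene is not reported here. Alternatives changed the centring, scaling, filter, orientation term, unit of the fit, replicate block, repeated array, number 1 arrays, moderation, pooling of regions and probe averaging, and left out each replicate in turn.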

Additional observations from a re-analysis of the deposited data

How the results depend on the processing

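Of the 5 subunits, the mean over the regions kept its sign for each, and its call for Atp6v1a, Atp6v0b and Atp6v0a2, under every alternative run; Atp6v1b2 lost its call in 3, given above. Counts of members called in a region moved more. In cortex, the count of 2 became 0 with arrays scaled to one spread and with robust moderation along a variance trend (adjusted p from 0.0576 to 0.0750), and 1 with the filter on at least 2 replicates of every region. The cerebellum count of 1 became 0 with scaling, without the repeated array and with the variance trend, 2 without number 1 and 3 without the channel 1 arrays of number 1. The hippocampus count of 0 became 1 with single arrays and a random block, and 3 in both settings without number 1 arrays. The brain stem-diencephalon count of 0 became 1 without number 1. Over the 11 pump genes the same changes gave the same counts, except 4 in cerebellum without the channel 1 arrays of number 1 and 2 in brain stem-diencephalon without number 1. Leaving out 1 replicate at a time gave 0 to 3 in cortex and 0 to 1 in cerebellum, for the members and for the 11 pump genes alike. Over all features, these settings called 0.445% (scaling), 0.024% (variance trend) and 2.6% (2-replicate filter) in cortex, and 1.71% (scaling), 0.571% (without the repeated array) and 0.337% (variance trend) in cerebellum. Without the channel 1 arrays of number 1, calls were 1039 of 7396 features in cerebellum and 2.39% in hippocampus. Single arrays with a random block called 2.2% in hippocampus. Fits that left out 1 replicate at a time called 0.0721% to 20.3% of all features in cortex and 0.24% to 5.48% in cerebellum. The cause of these changes was not tested.

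With the replicate block, the members called were 3 in cortex and 2 in hippocampus, then 2 in cerebellum and 1 in brain stem-diencephalon, and 4 in the mean, with Atp6v1a at 0.52 and Atp6v0b at -0.43. Those called were Atp6v1a in all 4 regions, Atp6v0b in all but brain stem-diencephalon and Atp6v1b2 in cortex, and the 11 pump genes gave the same counts in hippocampus (2), cerebellum (2) and brain stem-diencephalon (1). Over all features the block called 18.0% in cortex, 3.85% in hippocampus, 9.77% in cerebellum, 2.5% in brain stem-diencephalon and 33.3% in the mean. Deviations of replicates with one number correlated between regions at 0.095 to 0.71 for number 1, -0.18 to 0.29 for number 2 and -0.23 to 0.24 for number 3, above 0.1 in 12 of 18 pairs. Of the 12 numbered replicates, 4 correlated best with their own number, all of number 1. As the labels do not say that a number marks a shared animal or day and not every pair exceeded 0.1, the fit without the block was kept, although the number 1 replicates deviated together.

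The V1 minus V0 difference ranged from 0.57 to 0.85 in the mean, 0.63 to 0.94 in cortex and 0.48 to 1.03 in hippocampus, and from 0.51 to 0.83 in cerebellum and 0.31 to 0.63 in brain stem-diencephalon. Signs turned, with no call, for Atp6v1d in hippocampus with 1 replicate left out (-0.016, without hippocampus replicate 2, to 0.468), for Atp6v1e1 without the repeated array (-0.015), for Atp6v1g1 with a random block (0.019) and without the channel 1 arrays of number 1 (0.024), for Tcirg1 with the 2-replicate filter (-0.022), without the repeated array (-0.019) and without number 1 (-0.0087), and for Mbp with scaling (0.0022), the block (0.033) and without the repeated array (0.089). With 1 replicate left out the mean ranged from -0.049 to 0.014 for Atp6v1g1, -0.0546 to 0.0025 for Atp6v0e and -0.137 to 0.043 for Mbp. Fitting each region alone gives no mean.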
